A study of Ovis aries with 6 samples.

Results

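The genes described here are 4 connexin genes of the sheep ovary, GJA1, GJA4, GJA5 and GJC1, read in every cell type of follicle, stroma and vessel that could be rebuilt from the deposited counts. They were chosen by name, and 4 of 4 were found among the 30574 genes of the count matrices. The tissue was ovary of Hu ewes, a sheep breed, with 3 ewes of the HLS group (litters of 3 lambs or more) and 3 ewes of the LLS group (litters under 2 lambs), all taken at oestrus. A whole ovary from a single side of each ewe was digested and gave 1 library of droplet-based single-cell RNA sequencing. The ewe was therefore the replicate. The labels name no treatment and no genotype for either group. The labels give no pairing of ewes between the groups.

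Connexins are membrane proteins that assemble into gap junction channels, through which neighbouring cells exchange ions, nucleotides, second messengers and small metabolites. In the follicle, the product of GJA1 links granulosa cells to one another, and the product of GJA4 is best known for the junctions between the oocyte and the granulosa cells around it. In the vessel wall, GJA4 and GJA5 are the classical connexin genes of arterial endothelium, GJC1 is known from smooth muscle and pericytes, and GJA1 is also expressed by endothelium, stroma and lymphatic vessels.

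The libraries held 43329214 to 75549906 unique molecular identifiers (UMI, 1 per captured RNA molecule), and 36457 of 52290 barcodes were retained after filtering, with a median of 5230 to 9777.5 UMI per cell in the different ewes. Pairs of libraries shared 5 to 17 barcodes among retained cells. Cells were clustered without the 4 connexin genes, and each named cluster took a name ending in -like from its marker genes. A cluster stayed unnamed where its score was too low or its leading genes did not bear out the best list. Some unnamed clusters therefore scored above the limit, such as granulosa sub-clusters of 222 and 113 cells (0.703 and 0.801 for the early list). All other genes of the same cells made the clusters, so differences between types are described with clusters that were not independent of the connexins' companions in expression. The markers of oocytes (GDF9, ZP3, ZP4, DAZL, DDX4 and FIGLA) summed to at most 0.229 UMI per 10000 in any type. The oocyte list was not among those that could name a cluster, and a sum per type cannot show a few oocytes among many cells. Oocyte connexins were therefore not analysed here. The level of a gene is its UMI in all cells of a type in 1 ewe per 10000 UMI of those cells. It comes from tags at the 3' end of the RNA, so that levels are compared between cell types for 1 gene and not between genes.

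Among the main cell types, GJA1 had its highest levels in cycling granulosa-like, granulosa-like and theca-like cells and low levels in perivascular-like and immune-like cells. The more numerous endothelial-like cells held 49.94% of its UMI, and their lymphatic-like subtype, described further on, had a higher level (mean 8.20 UMI per 10000) than any of these types. In the 2246 granulosa-like cells its level was 2.07, 4.73 and 4.30 UMI per 10000 in HLS replicates 1, 2 and 3 and 4.49, 2.97 and 2.95 in LLS replicates 1, 2 and 3, with a mean of 3.58 ± 1.07 (SD, n = 6). HLS replicate 1 was the lowest, and the ranges of the groups overlapped. The 1570 theca-like cells, marked by CYP17A1 and INSL3, had 1.70, 2.70 and 3.196 UMI per 10000 in HLS ewes and 3.88, 6.08 and 3.01 in LLS ewes (3.43 ± 1.48). In theca-like cells LLS replicate 2 was far above the others, and HLS replicate 1 was again the lowest.

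The granulosa-like and theca-like levels of GJA1 were not told apart by edgeR's quasi-likelihood test with the ewe as a block (log2 difference -0.01 ± 0.20, adjusted p = 0.981; 42.0% of all genes tested were called at an adjusted p of 0.05). Cycling granulosa-like cells had the highest mean (4.05 ± 1.82) and was not told apart from theca-like cells (log2 difference 0.11 ± 0.20, adjusted p = 0.746; 35.3% of genes called), although at a clustering resolution of 0.4 the difference was 0.84 and was called (adjusted p = 0.000574). Granulosa-like cells exceeded endothelial-like cells by 0.67 ± 0.19 on the log2 scale (adjusted p = 0.00237), and the level was higher in 5 of 6 ewes. In that contrast 58.4% of genes were called, so that a call by itself was common. Theca-like cells exceeded endothelial-like cells by 0.68 ± 0.19 (adjusted p = 0.00171) in 6 of 6 ewes, against a background of 63.6%. This last call was lost at a clustering resolution of 0.4, where the difference was 0.22 (adjusted p = 0.311).

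Below the follicle cells, GJA1 followed an order of endothelial-like, stromal-like and perivascular-like cells. The 14413 endothelial-like cells had 1.40 to 3.10 UMI per 10000 (2.01 ± 0.57), and the 8087 stromal-like cells 0.828 to 1.61 (1.30 ± 0.32). The endothelial-like level was higher in 6 of 6 ewes (log2 difference 0.72 ± 0.19, adjusted p = 0.000964; 58.6% of genes called). Epithelial-like cells had 0.331 to 0.724 UMI per 10000 in the 4 ewes with at least 10 such cells, and Schwann-like cells 0.0879 to 0.757. Perivascular-like cells, the pericytes and smooth muscle around vessels, had only 0.109 to 0.310 (0.175 ± 0.076), which was 2.99 ± 0.23 below the stromal-like cells on the log2 scale (adjusted p = 4.93e-18; 32.8% of genes called). The 6 ewes did not overlap between these types. T cell-like cells had a mean of 0.257, macrophage-like cells 0.127 and B cell-like cells 0.0776 UMI per 10000.

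The perivascular-like cells held the highest levels of GJA4 and GJC1 among the cell types. GJA4 had 2.01, 2.78 and 0.764 UMI per 10000 in perivascular-like cells of HLS ewes and 2.22, 2.03 and 1.10 in those of LLS ewes (1.82 ± 0.75). The lowest value was that of HLS replicate 3 and the highest that of HLS replicate 2. Granulosa-like cells followed with 0.243 to 1.37 (0.665 ± 0.409) and endothelial-like cells with 0.206 to 0.544 (0.382 ± 0.127). GJA4 was 1.56 ± 0.32 higher in perivascular-like than in granulosa-like cells (adjusted p = 3.72e-05; 47.9% of genes called) and 2.06 ± 0.32 higher than in endothelial-like cells (adjusted p = 4.88e-08; 51.6%), in 6 of 6 ewes each. The granulosa-like and endothelial-like means were not told apart (log2 difference 0.51 ± 0.32, adjusted p = 0.167), but without HLS replicate 2 or LLS replicate 1 the difference was 0.90 (adjusted p = 0.0232) or 0.72 (adjusted p = 0.0362). Theca-like cells had a mean of 0.0301 and macrophage-like cells 0.0185 UMI per 10000, so the GJA4 level in theca-like cells was about that of immune cells.

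GJC1 had 1.34, 3.04 and 1.56 UMI per 10000 in perivascular-like cells of HLS ewes and 3.16, 2.79 and 2.56 in those of LLS ewes (2.41 ± 0.77). HLS replicates 1 and 3 were the lowest, and HLS replicate 2 lay among the LLS ewes. Granulosa-like cells had 0.397 to 0.915 (0.720 ± 0.184), 1.80 ± 0.16 lower on the log2 scale (adjusted p = 1.1e-15), and the ewes did not overlap between the types. Stromal-like cells (0.530 ± 0.118), endothelial-like cells (0.280 ± 0.062) and theca-like cells (0.257 ± 0.074) followed. GJC1 had a mean above 0.2 in every one of these follicle, stroma and vessel types, while macrophage-like cells had a mean of 0.0741 and T cell-like cells 0.0386.

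Among endothelial-like cells, GJC1 was higher and GJA1 lower in the cycling cells than in all others together. GJC1 had a mean of 0.705 ± 0.128 UMI per 10000 in cycling endothelial-like cells, which was 1.17 ± 0.16 higher on the log2 scale than in other endothelial-like cells (adjusted p = 1.68e-08), and GJA1 was 1.38 ± 0.20 lower there (adjusted p = 6.66e-08; 39.4% of genes called). The ewes did not overlap in either gene. The cycling cells were a different mix of subtypes. Both of their sub-clusters scored highest on the capillary list (0.814 and 0.786), and LLS replicate 1 held 499 of the 1018 cells. Mean GJA1 was 1.24 in other capillary-like cells and 8.20 in lymphatic-like cells, which are part of the comparison class. The part of this mix in the differences was not tested. GJA1 was also lower in cycling stromal-like than in other stromal-like cells (log2 difference -0.63 ± 0.21, adjusted p = 0.0115; 37.6% called), a call that was lost without HLS replicate 2 (adjusted p = 0.0577) or LLS replicate 1 (adjusted p = 0.0603) and without the ewe block (adjusted p = 0.0516). The GJC1 difference between those stromal-like classes was 0.36 ± 0.17 (adjusted p = 0.0886, or 0.0436 without LLS replicate 1 and 0.0179 without TMM factors), and that between cycling and other granulosa-like cells 0.05 ± 0.19 (adjusted p = 0.898; 28.4% called). Whether these differences vary between the types was not tested.

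The fewest UMI were counted for GJA5, 5708 in all retained cells against 56865 of GJA1, 11441 of GJA4 and 15585 of GJC1. Endothelial-like cells held 79.2% of its UMI. Its level was 0.110 to 0.472 UMI per 10000 in endothelial-like cells (0.281 ± 0.141) and 0.0837 to 0.556 in perivascular-like cells (0.303 ± 0.201), and these types were not told apart (log2 difference -0.03 ± 0.31, adjusted p = 0.947). In granulosa-like cells it was 0.0198 to 0.0981, 2.66 ± 0.37 lower than in endothelial-like cells (adjusted p = 2.59e-09; 58.4% of genes called).

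Over all 78 pairs of the 13 cell types tested, GJA1 differed in 64, GJC1 in 60, GJA4 in 42 and GJA5 in 34 pairs at an adjusted p of 0.05. Across those pairs the share of all genes called ranged from 17.84% to 63.72% with a median of 44.62%, so the count for GJA5 (34 of 78) lay near the background and those for GJA1 and GJC1 above it. The plot of levels by cell type shows each ewe.

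**Figure D1:**
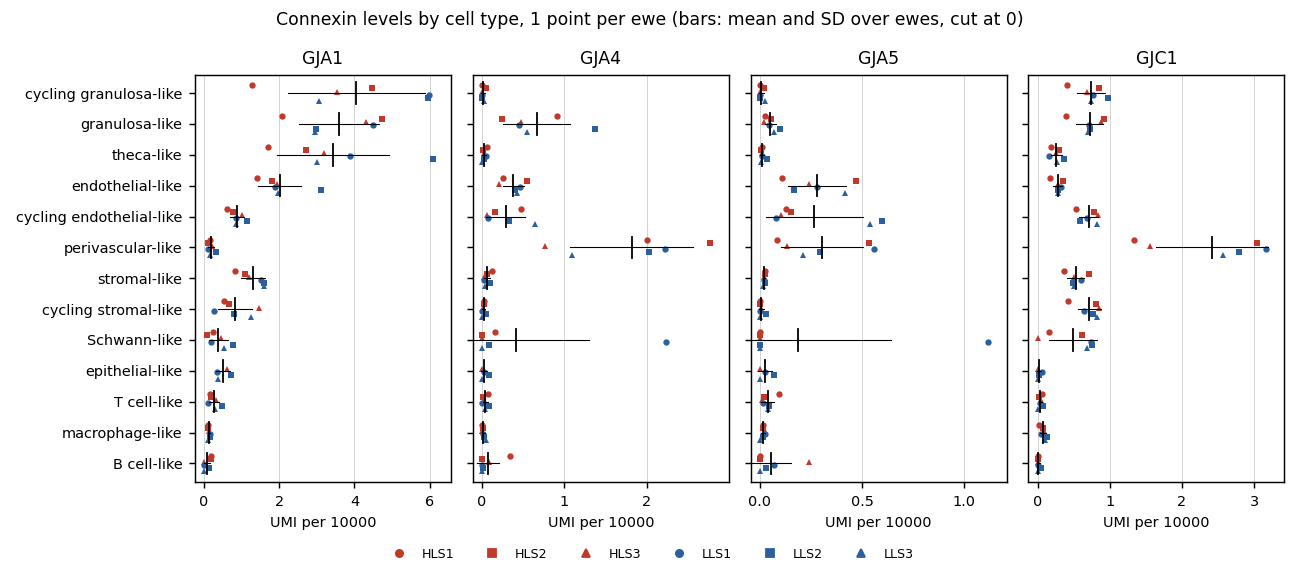
Levels of GJA1, GJA4, GJA5 and GJC1 by cell type, in UMI per 10000 UMI (x axis, a separate linear scale per gene). Each point is 1 ewe (red HLS, blue LLS; circle, square and triangle for replicates 1, 2 and 3), the vertical bar is the mean and the horizontal bar the SD, cut at 0; GJA1 is highest in cycling granulosa-like, granulosa-like and theca-like cells (means 4.05, 3.58 and 3.43), and GJA4 and GJC1 in perivascular-like cells (1.82 and 2.41).

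The share of cells with at least 1 UMI was also read, after each cell had been thinned at random to 1000 UMI. Among the main types it was highest in granulosa-like and theca-like cells for GJA1, and in perivascular-like cells for GJA4 and GJC1. GJA1 was then detected in 27.5% of granulosa-like and 27.1% of theca-like cells (means over 6 ewes), against 1.85% of macrophage-like and 3.02% of T cell-like cells. Cycling granulosa-like cells, which had the highest mean level, reached only 20.5%. Without thinning the shares were 75.3% in granulosa-like cells, with a median of 9527 UMI per cell, and 9.79% in macrophage-like cells, with a median of 6528.5. The share in thinned perivascular-like cells was 2.15%, between those of the macrophage-like and T cell-like cells. Whether it lay above background was not tested.

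GJA4 was detected in 15.02% of thinned perivascular-like and 5.53% of granulosa-like cells, against 0.319% of T cell-like cells. GJC1 was detected in 17.5% of thinned perivascular-like, 8.32% of granulosa-like and 5.17% of stromal-like cells, against 0.714% of macrophage-like cells. Cycling stromal-like (9.12%) and cycling granulosa-like cells (9.08%) lay above the non-cycling ones. For granulosa-like cells this order did not hold in the states named further on. There, cycling cells had 7.94%, against 8.61% in mural, 9.45% in INHA and AMH and 10.06% in early cells. Thinned theca-like cells reached 2.01% for GJC1 and 0.0487% for GJA4. GJA5 was found in 2.62% of thinned perivascular-like, 2.25% of endothelial-like and 0.0846% of macrophage-like cells.

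Within the endothelium the connexins divided by vessel type. The 14413 endothelial-like and 1018 cycling endothelial-like cells were clustered again and named from lists for arterial, capillary, venous, tip, lymphatic and cycling cells, and 6041 cells met none of them. Arterial-like cells (683 cells, with SOX17, HEY1, SEMA3G and EFNB2 in their list) had the highest means of GJA5 and GJA4. For GJA4 they were not told apart from capillary-like cells, which reached 6.17 UMI per 10000 in LLS replicate 3 against at most 3.31 in arterial-like cells. Lymphatic-like cells (777 cells, PROX1 and LYVE1) carried the most GJA1. Unnamed endothelial cells had at most 0.0830 UMI per 10000 of GJA4 and 0.0507 of GJA5. Venous-like cells had at most 0.117 of GJA4 in 5 ewes but 0.816 in HLS replicate 1. PROX1, a gene of the lymphatic list, had 9.91 to 15.9 UMI per 10000 in lymphatic-like and 0.259 to 0.706 in arterial-like cells. Not every list was highest in the cells it named. The tip list summed to 8.59 to 10.4 UMI per 10000 in lymphatic-like and to 3.43 to 8.87 in tip-like cells. In tip-like cells the capillary list summed to 16.2 to 30.9.

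GJA5 had 1.64, 8.07 and 4.97 UMI per 10000 in arterial-like cells of HLS ewes and 5.36, 3.34 and 3.46 in those of LLS ewes (4.47 ± 2.21, n = 6). HLS ewes were both the highest and the lowest. In venous-like cells, which carried SELP and ACKR1, the level was 0 to 0.0937 (0.0510 ± 0.0387, 60 UMI in all). The log2 difference between arterial-like and venous-like cells was 6.51 ± 0.63 (adjusted p = 5.18e-10), with no overlap between the ewes, and 20.3% of genes were called in that contrast. Arterial-like cells exceeded tip-like cells, the sprouting cells with APLN and ANGPT2, by 3.42 ± 0.50 (adjusted p = 1.46e-06; 32.4% called) and capillary-like cells by 2.76 ± 0.55 (adjusted p = 0.000101; 42.9%). In lymphatic-like cells only 11 UMI of GJA5 were counted over 6 ewes, a mean level of 0.0257.

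GJA4 had 2.03, 1.92 and 2.39 UMI per 10000 in arterial-like cells of HLS ewes and 2.33, 3.31 and 2.64 in those of LLS ewes (2.44 ± 0.50). It varied less between ewes than GJA5 did in the same cells. Lymphatic-like cells had 1.67, 0.927 and 0.489 in HLS ewes and 1.24, 1.87 and 1.90 in LLS ewes (1.35 ± 0.57), and the level was lower than in arterial-like cells in 6 of 6 ewes. This difference did not pass the adjusted threshold (log2 0.94 ± 0.40, adjusted p = 0.0630; 38.2% of genes called). It did without LLS replicate 3 (0.97, adjusted p = 0.0217), and with all ewes under no filter, a mitochondrial limit of 20%, resolutions of 0.4 and 1.6 and connexins among the variable genes (0.84 to 0.96, adjusted p values from 0.00695 to 0.0396). Compared with venous-like cells (0.0122 to 0.816), GJA4 was 4.75 ± 0.56 higher in arterial-like cells (adjusted p = 3e-08) and 3.81 ± 0.56 higher in lymphatic-like cells (adjusted p = 7.8e-07; 34.0%). For GJA5 the log2 difference between arterial-like and lymphatic-like cells was 7.86 ± 0.76 (adjusted p = 6.05e-11), so that GJA4 and GJA5 shared the arterial-like cells but not the lymphatic-like ones. Against tip-like cells GJA4 was 2.10 ± 0.45 higher in arterial-like cells (adjusted p = 0.000392), a call lost with doublets kept (1.33, adjusted p = 0.272).

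The capillary-like cells, with ESM1, OIT3 and APLNR, differed widely between ewes in GJA4 and GJA5 but not in GJA1 (1.20 to 1.31). Only 4 ewes had at least 10 of these cells, and HLS replicate 2 and LLS replicate 1 held 2141 and 2651 of the 5046. GJA4 had 1.06, 0.588, 0.393 and 6.17 UMI per 10000 in HLS replicates 1 and 2 and LLS replicates 1 and 3, and GJA5 had 0.497, 0.346, 0.189 and 4.05. The last of each was LLS replicate 3, whose value rested on 29 cells, 189 UMI of GJA4 and 124 of GJA5. Of those 29 cells, 24 lay in a connexin-rich sub-cluster of 463 cells, described below. It held 127 of the 2141 cells of HLS replicate 2 and 310 of the 2651 of LLS replicate 1. The ewes therefore differed in their mix of sub-clusters. The arterial list summed to 2.33 to 10.2 UMI per 10000 in the capillary-like cells over the 4 ewes, and its part in the result was not tested. GJA4 was not told apart between arterial-like and capillary-like cells (log2 difference 1.03 ± 0.47, adjusted p = 0.0729). It was called, higher in arterial-like cells, without LLS replicate 3 (1.94, adjusted p = 0.000175) and also with all ewes under 6 alternatives: no filter (0.93), thinning (1.20), a mitochondrial limit of 20% (1.75), resolutions of 0.4 (1.85) and 1.6 (1.95), and connexins among the variable genes (1.85), with adjusted p values from 1.73e-05 to 0.0150.

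The sub-clusters that made up the capillary-like cells differed from each other. One of 463 cells, of which 127 came from HLS replicate 2, 310 from LLS replicate 1 and 24 from LLS replicate 3, had 8.39, 3.62 and 7.12 UMI per 10000 of GJA4 in those ewes and 4.31, 1.28 and 4.88 of GJA5. The larger sub-clusters, of 2179 cells almost all from LLS replicate 1 and 1982 cells almost all from HLS replicate 2, had at most 0.279 of GJA4 and 0.188 of GJA5. GJA1 was at 1.22 to 1.23 in the connexin-rich sub-cluster and at 1.04 to 1.24 in the others of that size, so GJA1 did not follow GJA4 and GJA5. In the connexin-rich cells the capillary list summed to 18.0 to 28.3 and the arterial list to 6.13 to 12.8 UMI per 10000. The arterial list summed to 1.93 to 2.61 in the other 2 sub-clusters and to 8.50 to 15.6 in the arterial-like sub-cluster of 620 cells. In those arterial-like cells the capillary list summed to 7.74 to 15.8. A further capillary-like sub-cluster of 225 cells, 215 of them from HLS replicate 1, had 1.07 of GJA4 and 0.498 of GJA5 in that ewe. These sub-clusters were made from the same cells and were not tested against each other.

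Arterial-like cells also had an inner division. A sub-cluster of 63 cells led by ELN, MFAP5 and COL5A2, genes of the elastic and fibrous matrix, had 15.6, 9.74, 4.65 and 7.26 UMI per 10000 of GJA5 in HLS replicate 2 and LLS replicates 1, 2 and 3. The other sub-cluster, of 620 cells, had 1.46 to 6.13 of GJA5 in the 6 ewes. GJA1 ran the other way, with 0.102 to 0.492 in the ELN-led cells and 0.861 to 2.56 in the other cells. The ELN-led cells came with at least 10 cells from 4 ewes only, and the perivascular list summed to at most 7.01 in them against at most 1.91 in the other arterial-like cells; the part of perivascular RNA in the result was not tested.

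**Figure D2:**
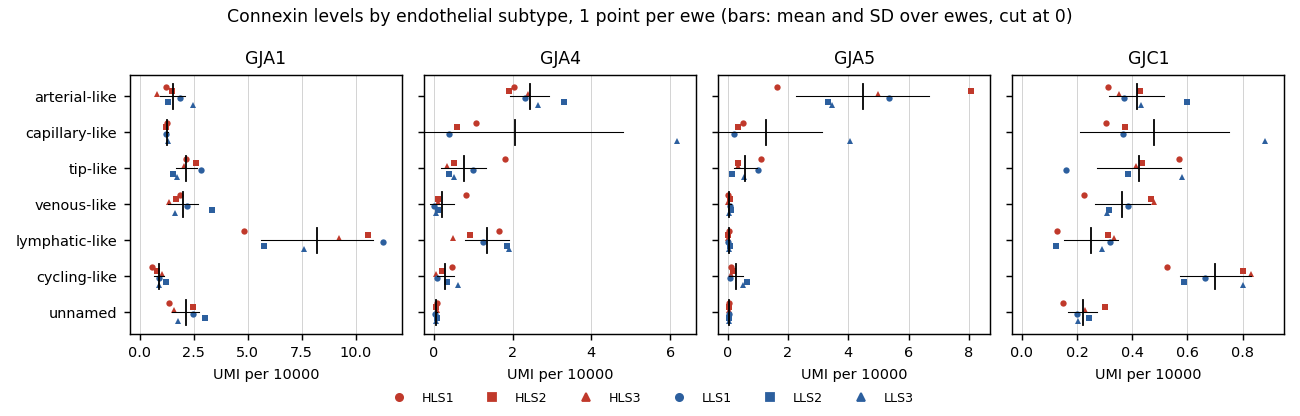
Levels of the 4 connexin genes by endothelial subtype, in UMI per 10000 UMI (x axis, a separate linear scale per gene). Points are ewes (red HLS, blue LLS), the vertical bar is the mean and the horizontal bar the SD, cut at 0; GJA5 peaks in arterial-like cells (mean 4.47), GJA1 in lymphatic-like cells (8.20), and LLS replicate 3 stands apart in capillary-like cells.

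**Figure D3:**
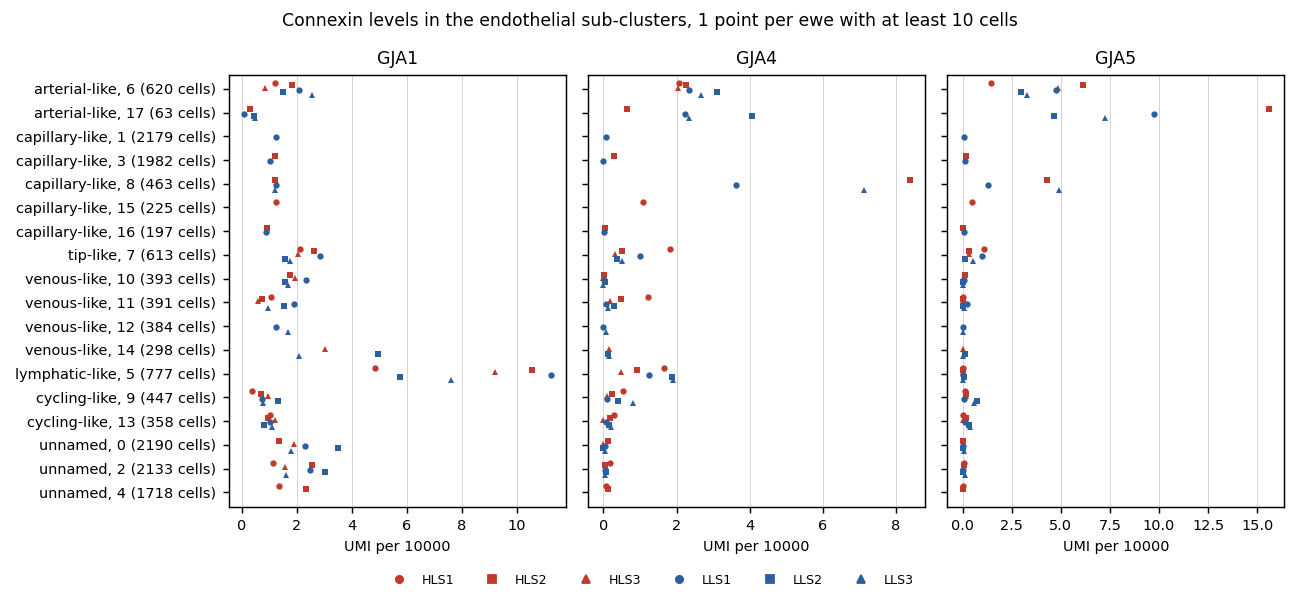
Levels of GJA1, GJA4 and GJA5 in each sub-cluster of the endothelial cells, in UMI per 10000 UMI (x axis), with 1 point per ewe that has at least 10 cells there. GJA4 and GJA5 reach their highest levels in the arterial-like sub-clusters and a capillary-like sub-cluster of 463 cells. GJA4 is only 0.632 in the arterial-like sub-cluster of 63 cells in HLS replicate 2. A capillary-like sub-cluster of 225 cells has 1.07 of GJA4 and 0.498 of GJA5 in HLS replicate 1. The larger capillary-like and unnamed ones are near 0.

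GJA1 had 4.85, 10.6 and 9.21 UMI per 10000 in lymphatic-like cells of HLS ewes and 11.2, 5.76 and 7.60 in those of LLS ewes (8.20 ± 2.58). Every ewe was above the highest value of any other endothelial subtype, which was 3.33 in venous-like cells of LLS replicate 2. The next mean was that of tip-like cells (2.15 ± 0.50), and lymphatic-like cells exceeded it by 1.98 ± 0.21 on the log2 scale (adjusted p = 7.82e-10; 40.0% of genes called). They exceeded arterial-like cells (1.53 ± 0.58) by 2.32 ± 0.22 (adjusted p = 3.01e-11). Cycling endothelial-like cells had the lowest mean (0.893 ± 0.221).

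GJC1 varied little among the non-cycling endothelial subtypes, with means from 0.220 in unnamed to 0.481 in capillary-like cells. It was 0.79 ± 0.19 higher in arterial-like than in unnamed cells (adjusted p = 0.00185; 25.9% of genes called), a call lost after thinning (0.62, adjusted p = 0.340). It was 0.77 ± 0.19 higher in cycling than in arterial-like cells (adjusted p = 0.000795; 55.9%), a call lost with doublets kept (0.23, adjusted p = 0.599) and after thinning (0.91, adjusted p = 0.0876). A capillary-like sub-cluster of 197 cells led by DNA replication genes (UHRF1, CDC6 and HELLS) had 0.681 to 0.917 UMI per 10000 of GJC1, in the range of the cycling cells. Over the 21 pairs of endothelial subtypes, GJA5 was called in 16, GJA4 in 15, GJC1 in 13 and GJA1 in 12, against a median background of 36.57% of all genes (range 2.58% to 62.1%).

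At equal depth, GJA5 was detected in 25.6% and GJA4 in 19.3% of arterial-like cells thinned to 1000 UMI, and GJA1 in 46.6% of lymphatic-like cells. Without thinning these shares were 55.6%, 56.7% and 83.6%. Venous-like cells, which had a similar median depth (6059.5 against 5750 UMI), had 0.502% for GJA5 and 2.14% for GJA4 after thinning. Of 547 arterial-like cells thinned to 3000 UMI, 244 held GJA4, 256 held GJA5 and 123 held both. GJA5 was found in 50.4% of the cells with GJA4 and 43.9% of those without, and the share was higher with GJA4 in 3 of 6 ewes.

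Around the vessels, pericyte-like cells carried more GJA4 and GJC1 than smooth muscle-like cells did. Pericytes wrap capillaries and vascular smooth muscle surrounds larger vessels; they were named here from lists with KCNJ8 and ABCC9, and with MYH11 and CNN1. GJA4 had 2.45, 3.46 and 1.07 UMI per 10000 in the 1368 pericyte-like cells of HLS ewes and 2.44, 2.09 and 1.57 in those of LLS ewes (2.18 ± 0.82). In the 1128 smooth muscle-like cells it had 0.662, 1.09 and 0.707 in HLS ewes and 0.798, 1.86 and 0.539 in LLS ewes (0.944 ± 0.488). The ranges overlapped over ewes, but the pericyte-like level was higher within each of the 6 ewes. The log2 difference was 1.19 ± 0.23 (adjusted p = 0.000218), and 41.1% of genes were called in that contrast.

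GJC1 had 1.41, 3.61 and 2.09 UMI per 10000 in pericyte-like cells of HLS ewes and 3.43, 3.02 and 2.56 in those of LLS ewes (2.69 ± 0.84). Smooth muscle-like cells had 0.821 to 1.94 (1.42 ± 0.42), lower within each of the 6 ewes (log2 difference 0.85 ± 0.13, adjusted p = 1.6e-05). GJA1 (0.165 ± 0.078 in pericyte-like and 0.231 ± 0.097 in smooth muscle-like cells) and GJA5 (0.295 ± 0.251 and 0.303 ± 0.119) did not pass the threshold, with adjusted p values of 0.0739 (0.0170 without LLS replicate 3) and 0.774. So 2 of 4 genes were called between these subtypes, both higher in pericyte-like cells, where 20.8% of all genes were higher.

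The smooth muscle-like cells were shallower, with a median of 2368 UMI against 4794 in pericyte-like cells. Thinned to 1000 UMI, 19.5% of pericyte-like and 8.56% of smooth muscle-like cells held GJA4, and 20.99% and 11.7% held GJC1. The same order therefore held at equal depth. Endothelial markers were low in both. The endothelial list summed to 0.980 to 3.10 UMI per 10000 in pericyte-like and 1.10 to 2.31 in smooth muscle-like cells, against 24.8 to 42.5 in arterial-like cells. CDH5 was at 0.0377 to 0.163 in pericyte-like cells. Clusters whose leading genes held more markers of another type stayed unnamed, so these low levels are partly set by the naming. The part of endothelial RNA in GJA4 was not tested. The GJA4 levels of pericyte-like (2.18) and arterial-like cells (2.44) come from separate fits and were not tested against each other, while the endothelial list of every pericyte-like sample lay below every arterial-like one.

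In pericyte-like cells thinned to 3000 UMI, 483 of 1060 held GJA4, 548 held GJC1 and 275 held both. GJC1 was found in 56.9% of cells with GJA4 and in 47.3% of those without, and the share was higher with GJA4 in 6 of 6 ewes. The cells of an ewe share its library, so this is a description and no test was made. The 88 cycling perivascular-like cells, counted in 4 ewes, had 1.83 to 4.01 UMI per 10000 of GJC1 and 0.373 to 2.84 of GJA4. Over the 3 pairs of perivascular subtypes, GJC1 was called in 2, GJA1 and GJA4 in 1 each and GJA5 in 0 (0 pairs also at an unadjusted p under 0.05), with a median of 41.11% of all genes called.

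**Figure D4:**
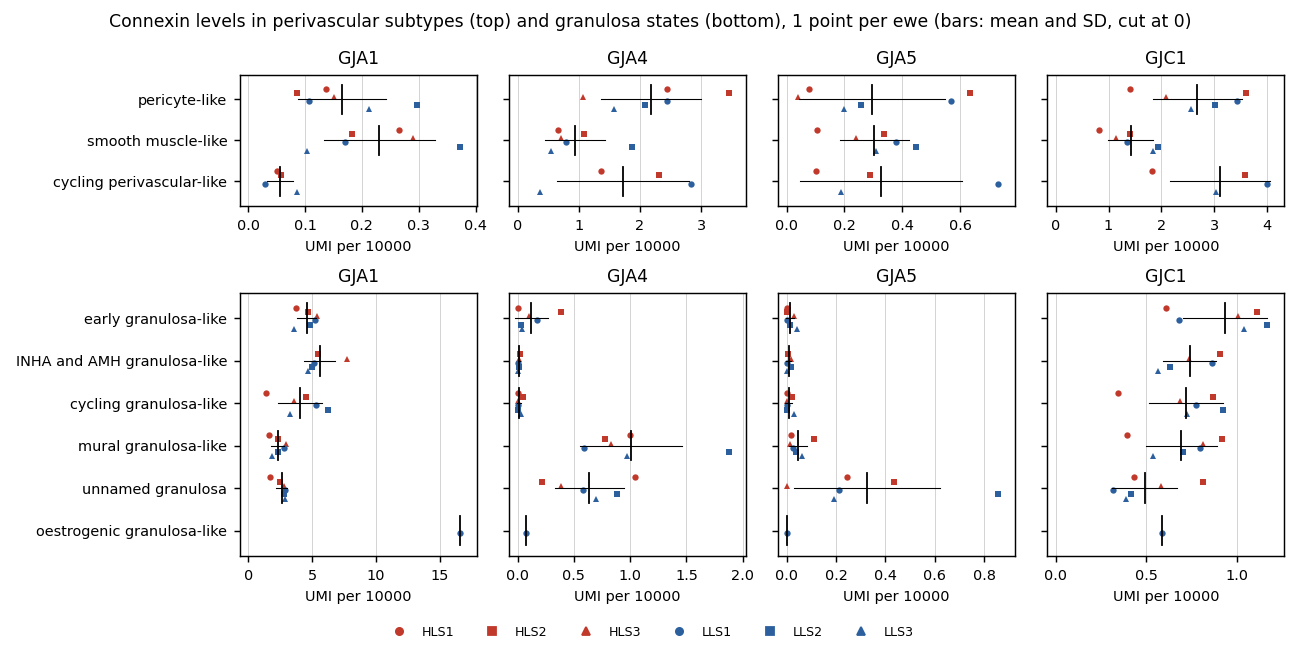
Levels of the 4 connexin genes in perivascular subtypes (top row) and granulosa states (bottom row), in UMI per 10000 UMI (x axis, a separate linear scale per panel). Points are ewes (red HLS, blue LLS) with at least 10 cells, the vertical bar is the mean and the horizontal bar the SD, cut at 0; GJA4 is highest in pericyte-like and mural granulosa-like cells (means 2.18 and 1.01), and the only oestrogenic granulosa-like point of GJA1 (16.6) is LLS replicate 1.

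Among granulosa states, GJA1 and GJA4 went opposite ways. The states were named from lists with WT1 and WNT6 for early, INHA and AMH for the INHA and AMH state, HTRA3 and JPH1 for mural, and CYP19 for oestrogenic granulosa-like cells. Some of these genes are markers that the study found on these same cells. GJA4 and GJA1, which the study used to name mural and atretic cells, were left out of the lists. Granulosa cells line the follicle, and those against its wall are called mural.

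GJA1 had 5.49 and 7.71 UMI per 10000 in INHA and AMH granulosa-like cells of HLS replicates 2 and 3 and 5.10, 4.96 and 4.65 in those of LLS ewes (5.58 ± 1.23, n = 5, 294 cells). HLS replicate 1 had under 10 such cells. The 596 early granulosa-like cells had 3.58 to 5.35 (4.57 ± 0.75). The 996 mural granulosa-like cells had 1.61, 2.33 and 2.96 in HLS ewes and 2.77, 2.31 and 1.83 in LLS ewes (2.30 ± 0.52), lower than every ewe of the other 2 states.

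The mural level of GJA1 was 1.24 ± 0.15 below that of INHA and AMH cells on the log2 scale (adjusted p = 2.06e-08; 41.9% of genes called) and 1.05 ± 0.15 below that of early cells (adjusted p = 3.5e-07; 38.0%). INHA and AMH cells and early cells were not told apart (log2 difference 0.19 ± 0.16, adjusted p = 0.427; 22.1%), except with called doublets kept (0.50, adjusted p = 0.0109), nor were early and cycling cells (0.24 ± 0.15, adjusted p = 0.221; 40.4%). Thinned to 1000 UMI, 44.7% of INHA and AMH, 36.7% of early and 20.2% of mural granulosa-like cells held GJA1. Mural granulosa-like cells were the deepest of these (median 12176.5 UMI), and 75.6% of them held GJA1 before thinning.

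GJA4 had 0.997, 0.774 and 0.830 UMI per 10000 in mural granulosa-like cells of HLS ewes and 0.586, 1.88 and 0.972 in those of LLS ewes (1.01 ± 0.45). LLS replicate 2 stood well above the other ewes. In early cells it was 0 to 0.389 (0.123 ± 0.144), and in INHA and AMH cells 6 UMI were counted over 5 ewes, against 1536 UMI over 6 ewes in mural cells. The log2 difference between mural and early cells was 3.29 ± 0.32 (adjusted p = 1e-10), and that between mural and INHA and AMH cells 5.64 ± 0.48 (adjusted p = 2.4e-12), with no overlap between the ewes in either. Thinned to 1000 UMI, 9.53% of mural and 1.12% of early cells held GJA4. The early cells are only those named so. Their sub-clusters of 377, 164 and 55 cells scored 0.559, 0.726 and 0.513 on the early list. The 164 cells had 0.0997 to 0.189 UMI per 10000 of GJA4 in 2 ewes. The unnamed sub-clusters of 222 and 113 cells scored 0.703 and 0.801. They had 0.1999 to 1.248 in 6 ewes and 1.001 to 1.144 in 3 ewes. Low GJA4 was therefore seen in the cells named early, not in all cells with a high early score.

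Vessel markers were low in the mural granulosa-like cells. The endothelial list summed to 0.565 to 0.776 UMI per 10000 there and to 0.839 to 2.39 in early cells, and the perivascular list to 1.02 to 1.98 and 0.915 to 1.67, against 39.4 to 86.9 in pericyte-like cells. RGS5, the defining gene of pericytes, was at 0.0374 to 0.268 in mural cells. A cluster whose leading genes held more markers of another type than of its own stayed unnamed. These low levels are therefore partly set by the naming, and the part of vessel RNA in the mural GJA4 level was not tested. In 376 unnamed granulosa cells, GJA4 was at 0.218 to 1.05, lower than in mural cells by 0.77 ± 0.27 (adjusted p = 0.0188; 41.0%). That call was lost without HLS replicate 3 (adjusted p = 0.0570) or LLS replicate 2 (adjusted p = 0.118), with DESeq2 (adjusted p = 0.292), without TMM factors (adjusted p = 0.0650) and without the ewe block (adjusted p = 0.0656). The endothelial list summed to 2.18 to 4.41 in these cells; the part of vessel RNA in that level was not tested.

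Within states, the sub-clusters differed. A sub-cluster of 164 early granulosa-like cells led by COCH, MRC2 and PTPRD had 7.92 UMI per 10000 of GJA1 in HLS replicate 3 and 7.88 in LLS replicate 2, above the 3.21 to 4.52 of the early sub-cluster of 377 cells led by CCN3 and ANGPT2. The cycling granulosa-like cells were made of 119 cells led by CENPF, CENPE and MKI67, with 4.09 to 6.68 in 4 ewes, and of 140 cells led by LGALS1 and ALPL, with 0.348 to 2.53 in 5 ewes. The latter were shallow, with a median of 3858 against 17940 UMI per cell. GJA4 was at 0 to 0.0523 in both.

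GJC1 was detected in every granulosa state at 0.319 to 1.17 UMI per 10000. Early cells had the highest mean (0.938 ± 0.233) and exceeded mural cells (0.694 ± 0.196) by 0.58 ± 0.14 on the log2 scale (adjusted p = 0.00124) in 5 of 6 ewes. When called doublets were kept this difference was -0.25 and was not called. The call was also lost at a mitochondrial limit of 20% (0.51, adjusted p = 0.0592) and with connexins among the variable genes (0.36, adjusted p = 0.0609). INHA and AMH, cycling and mural cells lay between 0.694 and 0.741 by mean. GJA5 was too sparse to be tested in granulosa states, with means of 0.00767 to 0.324 in the states held by at least 5 ewes, the highest in unnamed granulosa cells. Of these unnamed cells, a sub-cluster of 113 with RGS5 among its leading genes had 0.572 to 1.33 in 3 ewes. The sub-cluster of 222 cells had 0 to 0.178, and one of 41 cells led by PECAM1 had 0 in LLS replicate 3. The part of vessel RNA in the GJA5 level was not tested. Of the 10 pairs of states, GJA4 was called in 9, GJC1 in 7 and GJA1 in 6, against a median background of 39.83% of genes.

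No connexin was called between HLS and LLS ewes at an adjusted p of 0.05. The test was made in 25 types and subtypes and gave 72 values, of which edgeR called 0 and 2 had an unadjusted p under 0.05, and DESeq2 called 0 as well. With no filter on low counts 3 of 100 values were called, of GJA4 in venous-like cells and of GJA4 and GJA5 in capillary-like cells. The share of all genes called without the filter was not counted. Capillary-like cells were tested in 2 ewes per group, with 29 cells in LLS replicate 3. GJA4 in venous-like cells rested on 95 UMI, 18 of them in HLS replicate 1. With the filter, 0.00332% of values were called over all genes in these types together, and the 2 groups of ewes did not overlap in 11.4% of values. The connexins did not overlap in 2 of 72 values. GJA1 in stromal-like cells was 0.828, 1.09 and 1.19 UMI per 10000 in HLS ewes and 1.51, 1.61 and 1.595 in LLS ewes. All HLS ewes were below all LLS ewes, and the groups did not overlap in 9.62% of the genes tested in stromal-like cells. The log2 difference of HLS and LLS was -0.52 ± 0.14 (unadjusted p = 0.00536, adjusted p = 0.816). In stromal-like cells 651 of 13741 genes had an unadjusted p under 0.05. Over the alternatives tried the log2 difference of GJA1 stayed between -0.62 and -0.38, with adjusted p values from 0.463 to 0.998.

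The second value was GJA1 in INHA and AMH granulosa-like cells, which was 0.50 ± 0.22 higher in the 2 HLS ewes than in the 3 LLS ewes (unadjusted p = 0.0373, adjusted p = 0.837). The ewes did not overlap, as was the case for 19.0% of genes in those cells. Of all 6984 genes tested there, 401 had an unadjusted p under 0.05 and 0.0286% were called. In theca-like cells GJA1 was 0.62 ± 0.28 lower in HLS ewes (adjusted p = 0.973), and in all granulosa-like cells 0.26 ± 0.29 higher (adjusted p = 0.936), and the ewes overlapped in both.

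For the vessel connexins the group differences were small against the spread. GJA4 in arterial-like cells had a log2 difference of -0.28 ± 0.20, GJA5 there 0.32 ± 0.39, GJA4 in perivascular-like cells 0.18 ± 0.44 and GJC1 in perivascular-like cells -0.44 ± 0.28, with adjusted p values of 0.992, 0.992, 0.998 and 0.995. The differences of GJA4 ranged from -1.62 to 1.90 over its 17 values and those of GJA5 from -1.92 to 0.32 over its 12. The lowest values of both genes were those of capillary-like cells, tested in 2 ewes per group, and the highest value of GJA4 was that of venous-like cells, from 95 UMI. With 3 ewes per group, differences of the size of the standard errors were not detectable.

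**Figure D5:**
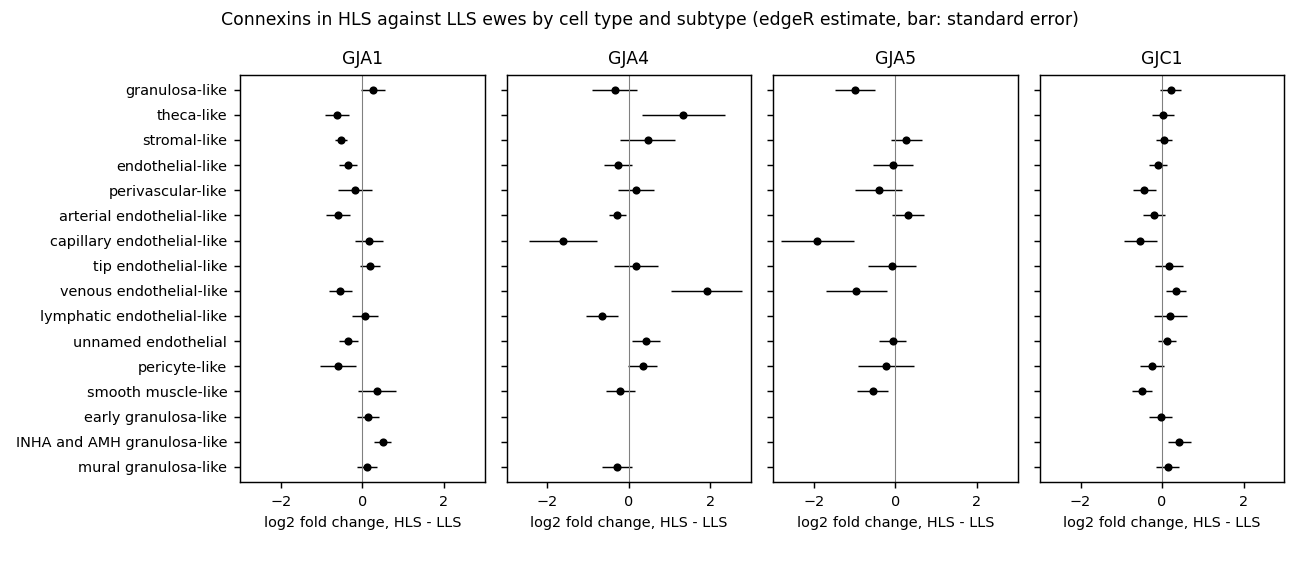
Log2 fold change of HLS against LLS ewes (x axis) for each connexin gene in cell types, endothelial and perivascular subtypes and granulosa states, estimated by edgeR, with the standard error as a bar and 0 as a line. GJA1 in stromal-like cells lies at -0.52, and no value passed an adjusted p of 0.05.

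Few UMI were counted for most of the remaining genes of the family. The list of 20 other connexin and pannexin genes had a row for each. GJA3, GJD2 and GJD4 had 0 UMI in the retained cells, and 6 genes of the list had at least 10 but under 100 UMI. A count of 0 in all retained cells allows up to 3 UMI. PANX1, whose product forms single-membrane channels that release ATP, was the most abundant, with 4589 UMI in all and its highest mean, 0.333 ± 0.073 UMI per 10000, in pericyte-like cells. It was 1.41 ± 0.25 higher there than in smooth muscle-like cells on the log2 scale (adjusted p = 6.2e-05).

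GJC3, known from myelinating glia, was concentrated in the 133 Schwann-like cells, with 4.48, 1.49 and 3.19 UMI per 10000 in HLS ewes and 1.86, 3.11 and 1.73 in LLS ewes, and 139 of its 238 UMI were found there. GJD3 was higher in lymphatic-like than in tip-like cells (log2 difference 2.65 ± 0.69, adjusted p = 0.00202), at a mean of only 0.0761. GJB1, an epithelial connexin gene, had 61 of its 91 UMI in epithelial-like cells. GJA9, GJA10, GJB2, GJB5, GJB6, GJB7, GJE1, PANX2 and PANX3 had means of at most 0.0341 UMI per 10000 in their highest type. No gene of this list was called between HLS and LLS ewes in 21 values (0 at an unadjusted p under 0.05).

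A list of 15 partners of gap junctions, the scaffolds, adhesion proteins and regulators that bind or accompany connexins, was read in the same contrasts. Between granulosa-like and endothelial-like cells, 3 were higher in granulosa-like cells, 9 in endothelial-like cells and 3 were not called, where 26.3% and 32.1% of all genes were higher. SRC, a tyrosine kinase that phosphorylates the GJA1 product, was higher in granulosa-like cells by 4.26 ± 0.26 on the log2 scale. CDH5, the cadherin and a naming marker of endothelium, fell by 6.48 ± 0.27, CLDN5, a claudin of endothelial tight junctions, fell by 6.04 ± 0.26, and CAV1, the caveolin, fell by 4.404 ± 0.27. Between perivascular-like and endothelial-like cells 3 of 15 were higher, 11 lower and 1 not called, where 51.6% of all genes were called. Between granulosa-like and perivascular-like cells 6 were higher, 5 lower and 4 not called, where 47.9% of all genes were called. These counts include CDH5 and CDH2, naming markers of endothelial-like and granulosa-like cells, so they are partly set by the naming.

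In the contrast of lymphatic-like with tip-like cells, 14 partners were tested, 2 were higher, 2 lower and 10 not called, with 19.6% and 20.4% of all genes. CCN3, a secreted matricellular protein that binds the tail of the GJA1 product, was 5.48 ± 0.49 higher (adjusted p = 1.19e-11), at 3.999 ± 2.19 against 0.0893 UMI per 10000. In the contrast of arterial-like with venous-like cells, 3 of 14 partners were higher, 1 was lower and 10 were not called, with 10.5% and 9.75% of genes. CLDN5 rose by 1.63 ± 0.24 (adjusted p = 1.87e-06) and OCLN, the occludin of tight junctions, by 1.16 ± 0.19 (adjusted p = 1.65e-05), whereas CDH2, the cadherin of granulosa cells and neurons, fell by 1.47 ± 0.51 (adjusted p = 0.0374).

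Between pericyte-like and smooth muscle-like cells, 2 of 11 partners were higher in pericyte-like cells, 4 lower and 5 not called, with 20.8% and 20.3% of genes. DBN1, an actin-binding protein that holds GJA1 channels at the membrane, was 2.08 ± 0.25 higher (adjusted p = 5e-07), and CCN3 was 1.63 ± 0.29 lower (adjusted p = 7.4e-05). Between mural and early granulosa-like cells, 5 of 10 partners were higher in mural cells, 3 were lower and 2 not called, with 19.6% and 18.5% of genes. EZR, the membrane linker ezrin, rose by 1.06 ± 0.16 and CTNNA1, the alpha-catenin of adherens junctions, by 0.94 ± 0.18 in mural cells. CCN3, which also led the larger early sub-cluster, fell by 3.21 ± 0.42 and CAV1 fell by 1.54 ± 0.48. Between mural and INHA and AMH cells 5 of 10 partners were higher in mural cells, 1 was lower and 4 were not called, where 41.9% of all genes were called. In none of 268 partner values was a difference between HLS and LLS called by edgeR, and 11 had an unadjusted p under 0.05. That count of 11 was not set against the share over all genes and is not read as a result.

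The genes whose pattern over cell types was most like each connexin were listed by Pearson's r of log2(CPM + 1), the mean over ewes, across 23 types and subtypes and 13706 genes. Types of 1 ewe share its library and depth, so r is a description. For GJA1 the 5 nearest genes were FAM222B (r = 0.86), KLHL4, GABARAPL1, TMEM200A and EXOC4 (r = 0.83). Those for GJA4 included EFNB2 (r = 0.83), FILIP1, GJA5 (r = 0.80) and MRCL3. For GJA5 they were HEY1 (r = 0.85), LOC101119634, GPR21, PLCL1 and ESAM (r = 0.81). EFNB2 and HEY1, an ephrin and a Notch target of arteries, were among the genes that named the arterial-like cells, so these values are partly set by the naming. For GJC1 they were RPP38 (r = 0.93), B3GLCT, PGM1, BPNT2 and THOC3 (r = 0.85). Among the 4 connexins themselves, r was 0.80 for GJA4 with GJA5, 0.51 for GJA4 with GJC1, 0.32 for GJA5 with GJC1, 0.24 for GJA1 with GJC1, -0.01 for GJA1 with GJA4 and -0.13 for GJA1 with GJA5.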

How the data were processed

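Ovaries of 6 Hu ewes (3 HLS, 3 LLS) were profiled with 3' droplet single-cell libraries, 1 per ewe. The authors deposited 1 filtered matrix of raw UMI counts per library, made with Cell Ranger 5.0.0; the genome build is not given in the sources used here. Cells were kept with at least 200 genes, 1000 UMI, a log10 gene to log10 UMI ratio of 0.7, at most 10% mitochondrial and 5% haemoglobin UMI. Doublets were called from 2 simulated doublets per cell at an expected rate of 0.8% per 1000 cells (2007 of 38464 cells, 5.218%). Clusters came from 2000 variable genes, all connexin and pannexin genes left out, 30 components and 20 neighbours (Leiden, resolution 0.8, Python 3.11.15, scikit-learn 1.9.0, leidenalg 0.10.2). They were named by marker scores and their leading genes. The limits of the scores (0.4 for types, 0.5 for subtypes) were set after the clusters were seen. Many endothelial sub-clusters came mostly from 1 ewe.

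Counts were summed per ewe and type (at least 10 cells, 4 ewes) and tested across all genes with edgeR 4.0.16's quasi-likelihood test (R 4.3.3), with the ewe as a block between types, and Benjamini-Hochberg adjustment over all genes; log2 differences carry edgeR's prior count. DESeq2 1.42.0 was an alternative. Types of 1 fit share the ewe's libraries. The ewes are separate animals, and p-values between HLS and LLS measure the spread between them. Between types the ewe is a block and all types of a level share 1 fit. Those p-values therefore rest on a spread over ewes pooled over all types of the fit, not on that of the named pair alone. The scripts were tested on simulated data. Members, marker lists, the 20 other connexin and pannexin genes and the 15 partners were chosen with earlier results of these data known. Named genes were the members, the other connexins and pannexins, up to 4 called partners per contrast by size, and the 5 genes most like each member with a mean of at least 10 CPM in a type. Alternatives were other scaling, filters, clustering, thinning and leaving out each ewe. Intervals and floors cover counting error only. Some genes that the rule names are not reported here.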

Additional observations from a re-analysis of the deposited data

Results flagged for a closer look

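Of 57 levels tested in groups of 4 to 6 ewes, 8 had an ewe far from the others. Only levels that reached 0.3 UMI per 10000 were tested. GJA4 in Schwann-like cells reached that limit only through the ewe then flagged. The flags in capillary-like cells all rest on the same cells of LLS replicate 3. The count was therefore not set against chance. In Schwann-like cells GJA4 was at 2.23 UMI per 10000 in LLS replicate 1 and at 0 to 0.155 in the others, from 12 UMI in 13 cells. CDH5, an endothelial marker, was at 4.28 in those cells and at 0.589 or less in the other ewes. In endothelial-like cells GJA1 was at 3.10 in LLS replicate 2 and at 1.40 to 1.95 in the others.

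In capillary-like cells LLS replicate 3, with 29 cells, had 6.17 of GJA4 (others 0.393 to 1.06), 4.05 of GJA5 (others 0.189 to 0.497) and 0.881 of GJC1 (others 0.303 to 0.372). Of those 29 cells, 24 lay in the connexin-rich sub-cluster of 463 cells, where HLS replicate 2 had 8.39 of GJA4 and LLS replicate 1 had 3.62. In INHA and AMH granulosa-like cells GJA1 was at 7.71 in HLS replicate 3 and at 4.65 to 5.49 in the others. In mural granulosa-like cells GJA4 was at 1.88 in LLS replicate 2 and at 0.586 to 0.997 in the others. Of the 258 mural cells of that ewe, 179 lay in a sub-cluster made almost only of its cells, where its level was 2.22. In unnamed granulosa cells GJA1 was at 1.72 in HLS replicate 1 and at 2.502 to 2.87 in the others.

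Cells that entered no comparison also held connexin UMI. The 104 luteal-like cells of LLS replicate 3 had 1.32 of GJA1, 0.0925 of GJA4 and 0.118 of GJC1 per 10000 UMI. The 19 oestrogenic granulosa-like cells of LLS replicate 1 had 16.6 of GJA1, from 226 UMI, and 0.587 of GJC1. After thinning to 1000 UMI, 68.4% of those 19 cells held GJA1 (95% exact binomial interval 43.5% to 87.4%). The 2141 cells of no named type had means of 1.53 for GJA1, 0.249 for GJA4, 0.137 for GJA5 and 0.330 for GJC1.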

How the results depend on the processing

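Counts of connexin calls: the 200 between cell types and 56 between endothelial subtypes stayed within 1.5 times under each alternative run. The 4 between perivascular subtypes (of 12 tests) became 2 after thinning (of 6), 11 with called doublets kept, 13 at a mitochondrial limit of 20% and 8 at a resolution of 1.6 (of 24 tests in each of the last 3). The 22 between granulosa states became 5 after thinning (10 tests), 14 at the 20% limit and 9 at a resolution of 0.4 (18 tests). The 0 between HLS and LLS became 3 with no filter on low counts (of 100 tests, with the share over all genes not counted).

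The numbers of the ewes do not pair the groups (correlation of deviations -0.41 to 0.34, over 0.1 in 5 of 21); with the replicate block 0 of 66 values were called, and GJA1 in stromal-like cells had -0.52 (adjusted p = 0.842).

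GJA1 in theca-like against endothelial-like cells lost its call at a resolution of 0.4 (0.22). Shares without thinning were 75.26%, 83.61%, 54.11%, 55.59% and 62.19% for GJA1 in granulosa-like and lymphatic-like, GJA4 in pericyte-like, GJA5 in arterial-like and GJC1 in pericyte-like cells.

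Directions turned in these results, and the cause was not tested. GJA1 in granulosa-like against theca-like cells was 0.15 without TMM factors, 0.071 after thinning and 0.55 at a resolution of 0.4, the last called. GJA5 in perivascular-like against endothelial-like cells was 0.10 without TMM factors and 0.021 at the 20% limit. GJA1 in arterial-like against cycling endothelial-like cells was 0.88 in the main setting (adjusted p = 0.000956). With doublets kept it was -1.72, called in the other direction (adjusted p = 0.00194). GJA5 in pericyte-like against smooth muscle-like cells was 0.017 without the ewe block. GJA1 in early against cycling granulosa-like cells was -0.24 with doublets kept, -0.14 at the 20% limit, -0.11 and -0.047 at resolutions of 0.4 and 1.6 and -0.23 with connexins among the variable genes. GJC1 in early against mural cells was -0.25 with doublets kept. GJA1 in cycling granulosa-like against theca-like cells was -0.011 with DESeq2, -0.41 after thinning and -0.072 at a resolution of 1.6. GJC1 in cycling against other granulosa-like cells was -0.031 with DESeq2, -0.44 after thinning and -0.10 at a resolution of 1.6. HLS against LLS for GJA1 in lymphatic-like cells was -0.0092 with no filter and -0.24 after thinning.

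Leaving out each ewe in turn turned the direction of some values, none of them called. GJA1 ranged from -0.22 to 0.15 in granulosa-like against theca-like, -0.11 to 0.13 in cycling granulosa-like against theca-like, and -0.15 to 0.34 in lymphatic-like cells for HLS against LLS. GJA5 ranged from -0.35 to 0.13 in perivascular-like against endothelial-like and -0.50 to 0.095 in pericyte-like against smooth muscle-like cells, and GJC1 from -0.15 to 0.15 in cycling against other granulosa-like cells. For HLS against LLS, GJA4 ranged from -0.17 to 0.57 in perivascular-like and -0.58 to 0.32 in mural cells, and GJA5 from -0.23 to 0.69 in arterial-like cells.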
